A study of Homo sapiens with 8 samples.

Results

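The transcripts described here were those with the lowest signal in the Ago2-IP fraction relative to the total (T) fraction of ST486 cells carrying either vector. They were chosen by these same array values. For each of the 14453 probes of the deposited table, log2 IP/T was taken as the mean of both IP labellings minus the mean of both total labellings, the values of both vectors were averaged, and the 200 lowest probes were kept. All statements about their IP/T ratio are therefore descriptions, and no test was run on them. The last probe kept, of PKIG, had a mean log2 IP/T of -1.5749. The next probe outside, of the cDNA record AY090769, had -1.5747. Just inside stood CCDC69 and the record BC067080 with -1.5758 and -1.5752, and further outside the predicted transcript XR_018640 and PPM1G with -1.574 and -1.5726, so the limit fell in a dense run of values and not at a gap.

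Ago2 is the Argonaute protein that carries miRNAs and, guided by them, holds on to the transcripts they pair with. Immunoprecipitation of Ago2 therefore pulls down RISC together with bound transcripts, and the IP/T ratio of a transcript states how much of it came along compared with the whole lysate. A transcript with a low ratio was represented less in the pull-down than in the lysate.

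ST486 cells derive from a Burkitt lymphoma, a tumour of germinal centre B cells. The cells were transduced either with the empty retroviral vector MXW-PGK-IRES-GFP (EV-ST486, or EV) or with the same vector holding miR-155 (miR-155-ST486, or miR-155), and GFP+ cells were sorted, so both kinds of cells carried a retroviral construct and GFP. Each vector gave 1 total RNA and 1 Ago2-IP RNA, 4 RNA samples in all. Each RNA was labelled with Cy3 and with Cy5, and IP and total RNA of a vector shared an array, once in each dye orientation, which made 4 arrays. The labellings are technical repeats (n = 1 RNA sample per condition), so no p-value is given and their spread measures labelling and hybridization, not biology. The arrays of EV-ST486 and of miR-155-ST486 lay on different slides, and vector and slide cannot be told apart. RNA pulled down with the IgG control antibody was not analysed here. Signals are of sorted cells in bulk, in which fewer cells with a transcript and less of it per cell cannot be told apart. Of 9 B-lineage markers found by name on the array, 8 were detected in all 4 labellings of total RNA and PAX5 in none. Of 12 markers of other cell types, 9 were detected in no labelling of total RNA, KRT8 in all, and CD14 and KRT18 in some.

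The miRNA that distinguished the vectors, miR-155-5p, is shown because it is what the miR-155 vector adds. The sequence is that of RefSeq (GRCh38.p14), 5′ to 3′, with the seed (bases 2 to 8) in capitals.
hsa-miR-155-5p: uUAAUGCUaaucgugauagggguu

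The median IP/T ratio of the 200 probes was 0.32 with EV and 0.27 with miR-155, which is -1.65 and -1.88 on the log2 scale. Over all 14453 probes the medians were -0.16 and -0.18. Of the 200 probes, 200 had an IP/T ratio of at most 0.5 in EV-ST486, where 10.0% of all probes did. In miR-155-ST486 it was 199, against 9.89% of all probes, and in both vectors 199, against 6.79%. These shares follow from how the probes were chosen and nothing is read from them. The exception was the probe of PSAP in miR-155-ST486. Ratios of at most 0.25 were found for 25 probes in EV-ST486, for 70 in miR-155-ST486 and for 2 in both.

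The dye orientations gave different sizes and the same direction. In EV-ST486 the median log2 IP/T was -1.88 with total RNA in Cy3 and -1.42 with total RNA in Cy5. In miR-155-ST486 it was -1.99 and -1.77. Every one of the 200 probes had a ratio below 1 in each orientation of each vector. Of these, 163 stayed at or below 0.5 in all 4 arrays. The ratios below 1 were all but fixed in advance, because the deposited table leaves out probes discordant between dyes and the chosen means were low. Nothing is read from this shared direction. The median SD between orientations was 0.47 (log2 scale, n = 2 labellings) with EV and 0.21 with miR-155.

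**Figure D1:**
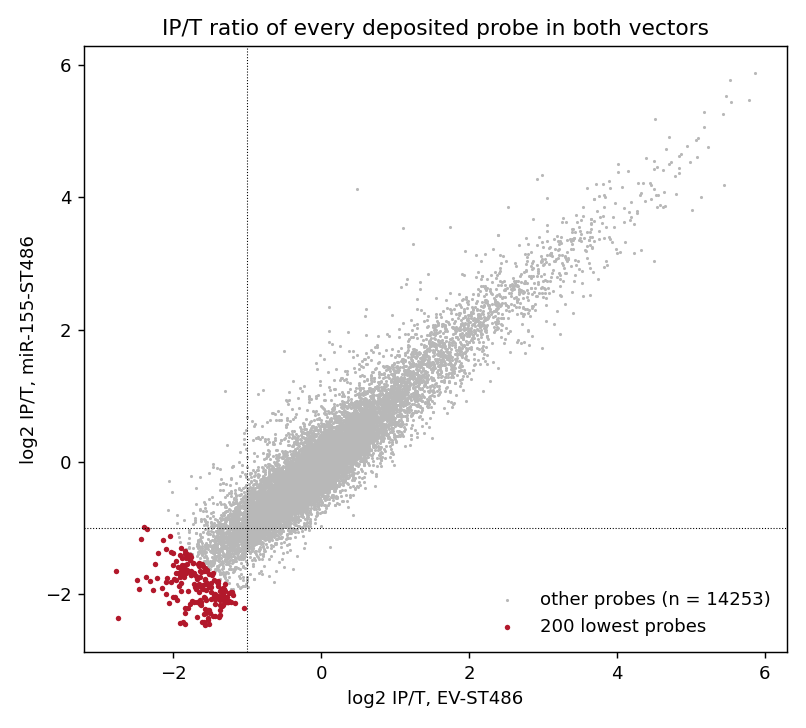
Log2 IP/T in EV-ST486 (x axis) against log2 IP/T in miR-155-ST486 (y axis) for each of the 14453 deposited probes, with the 200 lowest in red and dotted lines at -1, an IP/T ratio of 0.5. The 200 probes form the lower left end of the cloud and are cut off along a falling diagonal, because the sum of both values chose them.

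To read the low ratio in values that did not choose the probes, the 200 lowest were chosen again in 1 vector and read in the other. The 200 probes with the lowest ratio in EV-ST486 had a median ratio of 0.354 in miR-155-ST486, and 176 of them (88.0%, against 9.89% of all probes) were at most 0.5 there. The 200 lowest of miR-155-ST486 had a median ratio of 0.362 in EV-ST486, and 191 (95.5%, against 10.0%) were at most 0.5. Of these lists, 118 and 153 probes belonged to the 200 described here. The same exercise between dye orientations gave 181 and 170 of 200 probes at most 0.5 in the mean of both vectors, against 8.45% and 13.1% of all probes. In all 4 readings every probe had a ratio below 1. The readings share cell line, antibody and probe, and the orientations share the RNA. The deposited table leaves out probes discordant between dyes, which also ties the orientations to each other. The counts between orientations were therefore partly set by the choice.

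A smaller share of the 200 probes than of all deposited probes named a known gene. RefSeq symbols were found for 110 of the 200, 55.0% against 72.0% of all deposited probes, and these 110 belonged to 104 genes. All but 2 of the named probes were of protein-coding genes, and the others were of transcribed pseudogenes, BRD7P3 and LOC407835. For 36 probes the array gave no accession at all, 18.0% against 4.77% of all probes. A further 16 were for predicted RefSeq transcripts, 8.0% against 2.68%. Cloned cDNA, EST and protein records accounted for 20 probes, 10.0% against 11.2%. Ensembl records, which were not looked up, made up 8 probes (4.0% against 3.75%), and RefSeq records without a match 4 (2.0% against 2.71%). The probe with the lowest mean of all was also unnamed, for the predicted transcript XR_018460. Its signal (quantile-normalized array units, mean of both labellings) was 265 in total RNA and 39.6 in the IP of EV-ST486. In miR-155-ST486 the signals were 242 and 47.1. In each vector its IP was well above background in only 1 of 2 labellings. The probe is named here for its rank, after its values were seen.

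The 20 named genes with the lowest mean were NABP2, CKB, ARHGAP27, DDX56, COG2, AFG3L2, YARS1, KARS1, ZNF575, PRR7, AP3D1, TNRC18, FKBP4, DEAF1, WNT6, TPT1, ZNF467, ZNF263, AKT1 and BAX. They did not belong to a single process. The list holds enzymes of basic metabolism and protein synthesis, vesicle coat and tether proteins, nuclear RNA and DNA binding proteins, and a pair of regulators of cell survival.

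NABP2 encodes a single-stranded DNA binding protein of the DNA damage response. Its signal in EV-ST486 was 671 and 730 in total RNA (Cy3 and Cy5) and 139 and 117 in the IP. In miR-155-ST486 the values were 536 and 447 in total RNA and 132 and 128 in the IP. Log2 IP/T was -2.46 with EV and -1.91 with miR-155. The IP of EV-ST486 was well above background in only 1 of 2 labellings.

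CKB, brain-type creatine kinase, which buffers ATP, gave signals of 23726 and 18696 in total RNA and 7022 and 4730 in the IP of EV-ST486. In miR-155-ST486 they were 15966 and 12624 in total RNA and 2442 and 2874 in the IP. Log2 IP/T was -1.87 and -2.42, so here miR-155-ST486 had the lower ratio. The orientations of EV-ST486, at -2.33 and -1.41, lay further apart than the vectors. A second probe of CKB had a mean log2 IP/T of -0.77.

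DDX56, a nucleolar RNA helicase of ribosome assembly, gave 1159 and 1269 in total RNA and 248 and 189 in the IP of EV-ST486. In miR-155-ST486 it gave 1306 and 1117 in total RNA and 360 and 340 in the IP. Total RNA was nearly the same in both vectors and the IP signal was lower in EV-ST486, with a log2 IP/T of -2.49 and -1.79. KARS1, the lysyl-tRNA synthetase, gave 2372 and 2107 in total RNA and 552 and 454 in the IP of EV-ST486. In miR-155-ST486 it gave 2447 and 2335 in total RNA and 685 and 600 in the IP, and the vectors differed less, at -2.16 and -1.90. YARS1, the tyrosyl-tRNA synthetase, had -2.10 and -2.00.

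Among the genes of vesicle transport, COG2, a subunit of the Golgi tethering complex COG, had a log2 IP/T of -2.31 with EV and -1.80 with miR-155. AP3D1, a subunit of the AP-3 adaptor that sorts cargo to lysosomes, had -1.81 and -2.20. FKBP4, a co-chaperone of HSP90 with steroid receptors, had -2.22 and -1.75, and its orientations ranged from -2.75 to -1.37. ARHGAP27 had -1.84 and -2.45. TNRC18, a large nuclear protein, had -1.52 and -2.45, one of the widest gaps between vectors in this list. PRR7, a proline-rich membrane protein of lymphocytes and synapses, had -1.68 and -2.35. For COG2, AP3D1 and FKBP4 the IP of EV-ST486 was well above background in only 1 of 2 labellings.

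AKT1, the serine/threonine kinase downstream of PI3K, had -2.03 with EV and -1.81 with miR-155, but its probe was dim and the orientations of miR-155-ST486 gave -2.49 and -1.12. BAX, which permeabilizes the mitochondrial outer membrane in apoptosis, had -1.72 and -2.11, with signals of 4530 and 3720 in total RNA and 1627 and 958 in the IP of EV-ST486.

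**Figure D2:**
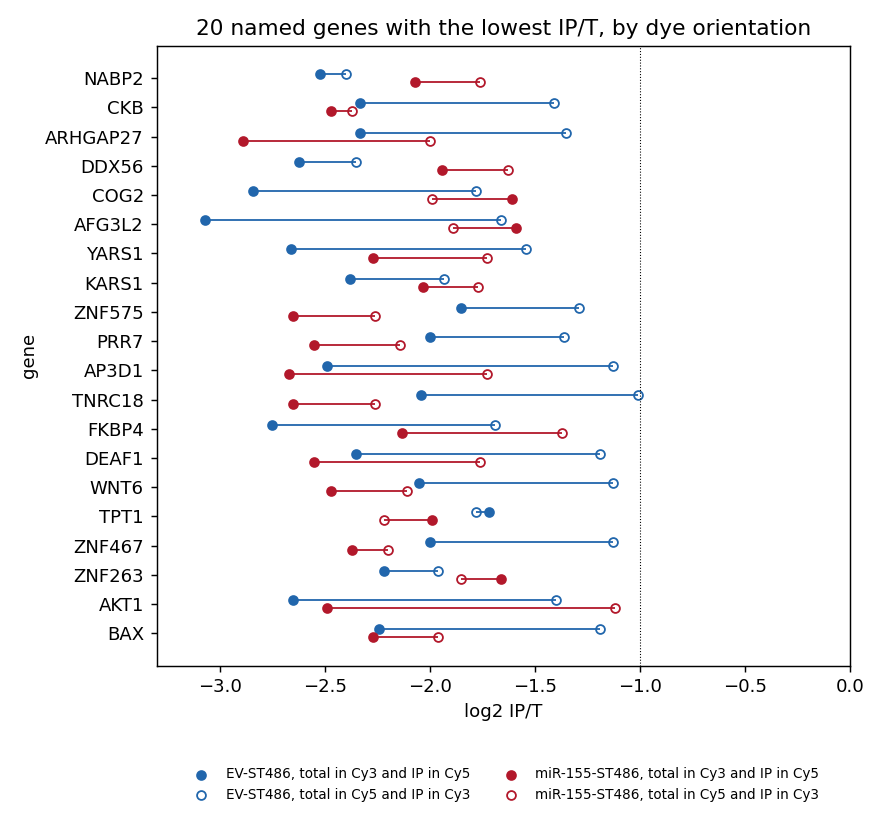
Log2 IP/T (x axis) of the 20 named genes with the lowest mean (y axis), in EV-ST486 (blue) and miR-155-ST486 (red), with total RNA in Cy3 as filled and total RNA in Cy5 as open circles and a line between the orientations of a vector. Every value lies below the dotted line at -1, and in most EV-ST486 pairs the orientation with total RNA in Cy3 is the lower, as for AFG3L2 at -3.07 and -1.66. The IP of this AFG3L2 probe was well above background in only 1 of 2 labellings of EV-ST486.

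All deposited probes of TPT1, AFG3L2 and PCCB were among the 200, 3 of the 51 genes here with 2 or more deposited probes. That the probes of these genes were alike follows from the choice. TPT1 encodes translationally controlled tumour protein, an abundant growth-related protein. Its 3 probes had log2 IP/T values of -1.75, -1.56 and -1.61 with EV and of -2.10, -2.08 and -1.90 with miR-155. The probe with the lowest mean of the 3 gave 67271 and 70207 in total RNA and 20411 and 20375 in the IP of EV-ST486, and 64061 and 63342 in total RNA and 13634 and 16114 in the IP of miR-155-ST486. The labellings of a fraction lay close together here, and the distance between the fractions follows from the choice of the probe. AFG3L2, a subunit of the mitochondrial inner membrane m-AAA protease, had -2.36 and -1.89 in EV-ST486 and -1.74 and -1.67 in miR-155-ST486. The IP of the probe at -2.36 was well above background in only 1 of 2 labellings of EV-ST486. PCCB, a subunit of mitochondrial propionyl-CoA carboxylase, had -1.67 and -1.77 in EV-ST486 and -1.86 and -1.48 in the other vector. C8orf33, whose function is little known, and TXNL4B, a protein of the spliceosome, each had 2 probes among the 200 and 1 further probe outside, at a mean log2 IP/T of -0.69 and -1.53.

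In most genes the other probes were less extreme. The 104 genes included 51 with 2 or more deposited probes. Of the 58 probes that read these genes and were not among the 200, the median of the mean log2 IP/T was -0.69 and the range was -1.53 to 1.13, while the median of all probes was -0.16. An IP/T ratio of at most 0.5 in both vectors was found for 12 of the 58 (20.7%, against 6.79% of all probes and 5.5% of named ones), and 47 lay below 0. These probes read the same RNA samples, and a gene enters this comparison only because 1 of its probes was extreme.

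Close pairs were found for CHCHD3, which shapes mitochondrial cristae, with a second probe at -1.53, for SRP68 of the signal recognition particle at -1.52 and for RPL12 at -1.51. Other genes were split. AP3D1 had a second probe at -0.21, and that of WNT6 lay at -0.20. Second probes above 0 were found for HRK at 0.52, MEX3D at 0.48, KLF16 at 0.38 and BBC3 at 0.24. Of the 3 further probes of TUBA1C, an alpha tubulin, 1 lay at -1.22, 1 at -0.19 and 1 at 1.13. For those genes the low ratio was read by some probes and not by others, and which transcript form each probe reads is not known here, since probe sequences were not used.

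**Figure D3:**
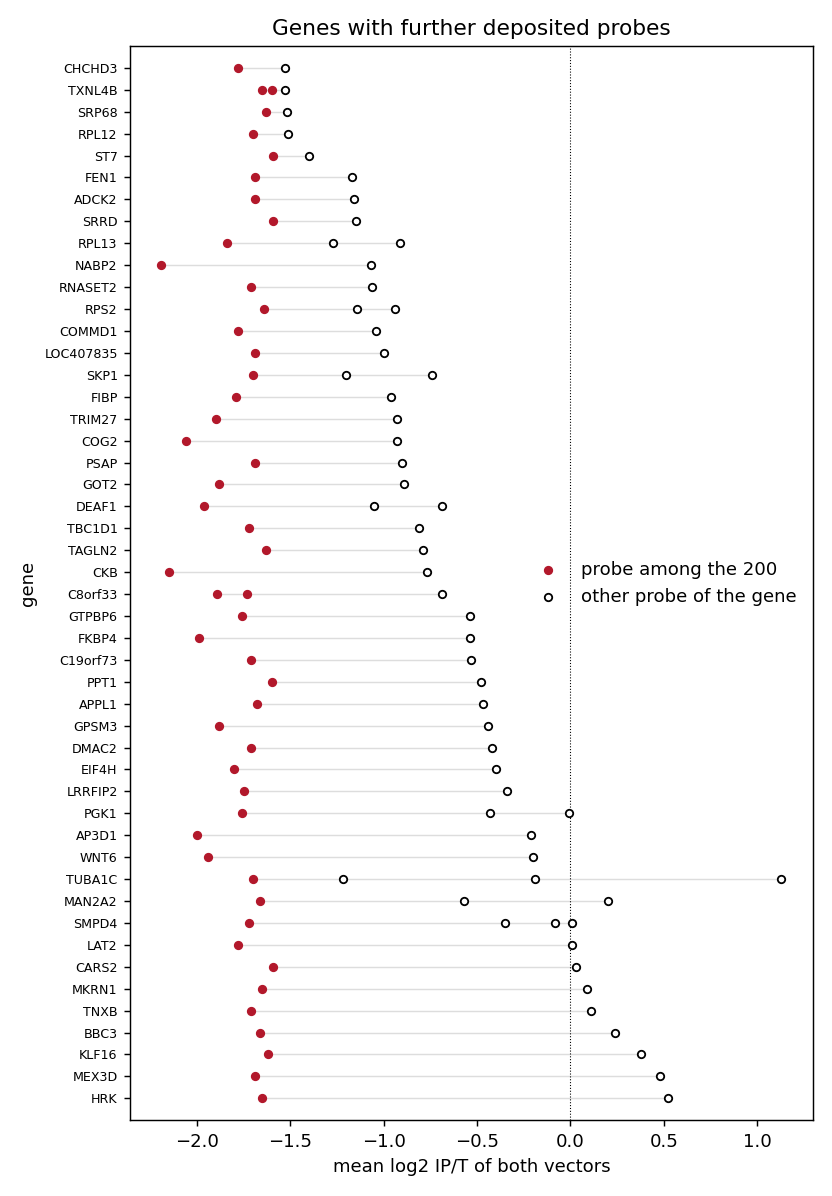
Mean log2 IP/T of both vectors (x axis) for the genes (y axis, sorted) that had at least 1 probe among the 200 (red) and at least 1 other deposited probe (open). The open circles run from -1.53 for CHCHD3 and TXNL4B to 1.13 for TUBA1C, and 11 of the 58 lie above 0.

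The probes were described next by their total signal. In EV-ST486 their median total signal was 2915, and that of all probes was 952. In miR-155-ST486 it was 2569, and that of all probes was 962. The median percentile of total signal among all probes was 71.7 with EV and 69.5 with miR-155. Of the 200, 144 lay above the middle of the range and 53 in its highest decile, and 8 lay in the lowest decile. Signal is compared here as the brightness of a probe and not as the abundance of its transcript, which also depends on the probe. The total signal is also the denominator of the ratio, so a choice by low ratio favours probes with a high total. The median log2 IP signal of the 200 was 9.82 with EV and 9.44 with miR-155, against 9.91 and 9.9 of all probes. Low ratios were more frequent at probes with a high total signal in general. A mean log2 IP/T of at most -1 was found for 16.1% of all probes in the highest decile of total signal and for 3.39% in the lowest decile. Total RNA of all 200 probes was well above background in both labellings of both vectors.

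**Figure D4:**
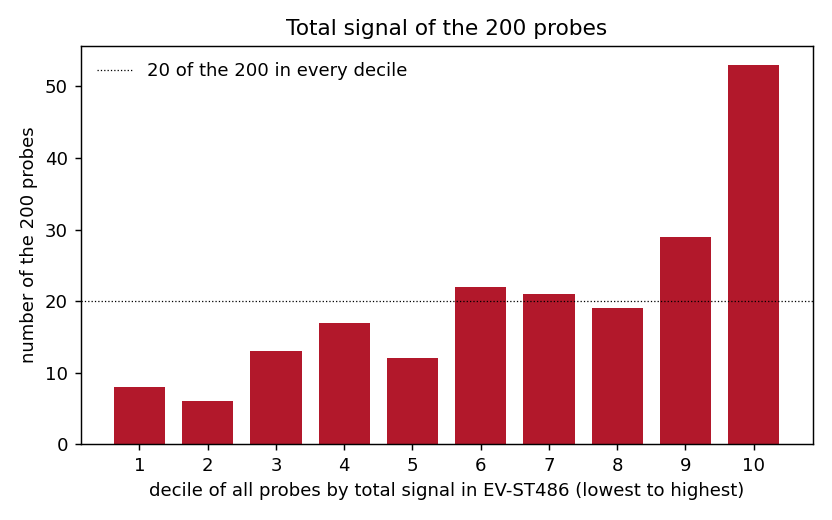
Number of the 200 probes (y axis) in each decile of all deposited probes ordered by total signal in EV-ST486 (x axis, decile 1 lowest), with a dotted line at the 20 that an even spread would give. The highest decile holds 53 probes and the lowest decile 8. Total signal is the denominator of the ratio that chose the probes.

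The brightest named probes were of RPS2 and RPL13, proteins of the small and the large cytosolic ribosomal subunit, then of TPT1, BBC3 and HES7. RPL13 gave 438710 and 464770 in total RNA and 195862 and 156774 in the IP of EV-ST486. In miR-155-ST486 it gave 895639 and 676695 in total RNA and 171242 and 142537 in the IP. The total signal of RPS2 in miR-155-ST486 was 676695 and 895639, the same pair of values with the dyes exchanged. Quantile normalization hands out the same set of values in every channel, and at the very top of the range it spaces neighbouring ranks widely. The log2 total of RPL13 was higher by 0.79 in miR-155-ST486, and that of RPS2 by 0.47.

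The dimmest named probes were of ST7, APPL1, PPT1, DMAC2 and TAGLN2. In 11 of the 200 probes the IP was not well above background in either labelling of EV-ST486, and in 3 of these in neither labelling of miR-155-ST486, so that the ratio is only a bound. For 31 probes the IP of EV-ST486 was well above background in only 1 of 2 labellings, and for 28 that of miR-155-ST486. Those ratios rest in part on a labelling near background. The bounds were computed from signals normalized within each array and then across arrays by their mean brightness, not from the quantile-normalized values, so they need not lie below the ratios given elsewhere. In EV-ST486 the IP was at least 2.74-fold lower than total RNA for DMAC2, a mitochondrial assembly factor. The bounds were at least 2.57-fold for APPL1, an endosomal adaptor, at least 2.54-fold for PPT1, the palmitoyl-protein thioesterase of lysosomes, and at least 2.3-fold for ST7. The 3 probes bounded in both vectors were of the cDNA records AK093550, BC013729 and BC051317. The highest of their bounds was that of BC013729, at least 3.84-fold in EV-ST486 and at least 3.89-fold in miR-155-ST486. Detection in all 8 channels held for 77.5% of the 200 probes and for 83.4% of all probes.

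The total signal itself differed little between vectors. It was lower in miR-155-ST486 for 153 of the 200 probes, 76.5% against 48.1% of all probes, with a median difference of -0.14 (log2, miR-155-ST486 minus EV-ST486), while that of all probes was 0.01. The SD of a single probe's difference between dyes had a median of 0.15. A decrease of at least 2-fold was found for 1 probe, that of APPL1 at -1.15, against 0.332% of all probes, and an increase of at least 2-fold for 0, against 0.567%. After APPL1 the named genes with the largest differences in total signal were CCDC69 at -0.91, SCRT2, a neural zinc finger repressor, at -0.82, RPL13 at 0.79 and CYP4F2, a fatty acid hydroxylase, at -0.70. The total signals also enter the choice of the probes.

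The IP/T ratio differed between vectors in both directions. The median difference was -0.22 on the log2 scale, with -0.16 for total RNA in Cy3 and -0.33 for total RNA in Cy5. The SD of a single probe's difference between orientations had a median of 0.30. This does not measure the uncertainty of the median over the 200 probes. The ratio was lower in miR-155-ST486 for 125 of the 200 probes, against 53.1% of all probes, and higher for 75, against 46.9%. It was lower in both orientations for 100, against 32.4%, and higher in both for 45, against 27.0%. A difference of 0.5 or more was found for 67 probes downwards, against 5.32%, and for 17 upwards, against 5.59%. In 5 of the 17 the ratio in EV-ST486 is only a bound. These values come from the contrasts that chose the probes. When the 200 probes were chosen on EV-ST486 alone the median difference was 0.29, and on miR-155-ST486 alone it was -0.49, so its sign followed the choice of vector.

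These directions went with brightness. The 125 probes that were lower in miR-155-ST486 had a median total signal of 9164 in EV-ST486, and 50 of them lay in the highest decile. Their median log2 IP/T was -1.52 with EV and -2.03 with miR-155. The 75 others had a median total signal of 1011, with 3 in the highest decile, and a median log2 IP/T of -1.89 and -1.62. In the highest decile 50 of the 53 probes were lower in miR-155-ST486, with a median difference of -0.69, whereas the median of all probes in that decile was -0.07. In the lower group the IP signal differed by a median of -0.83 and the total signal by -0.16. Over the 200 probes the difference in log2 IP/T and the log2 total signal in EV-ST486 had a Pearson r of -0.61, and over all 14453 probes of -0.02. The points share slide, arrays and the EV-ST486 total signal, which enters both axes, and slide and vector cannot be told apart.

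**Figure D5:**
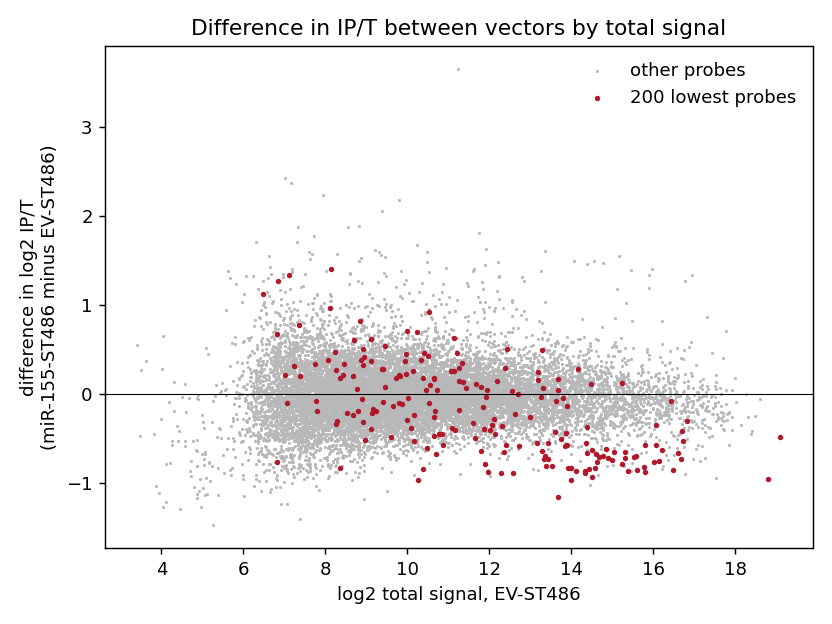
Difference in log2 IP/T between vectors (y axis, miR-155-ST486 minus EV-ST486) against log2 total signal in EV-ST486 (x axis), with the 200 lowest probes in red and all others in grey. The red points lie on both sides of 0 at low signal and nearly all below 0 in the highest decile, where 50 of 53 were lower in miR-155-ST486.

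The named genes with the lowest difference were NPAS3, a neuronal transcription factor, at -1.16, HRK at -0.96, RPL13 at -0.95 and TNRC18 at -0.93. For RPL13 the IP signal differed by -0.17 and the total signal by 0.79. Its other probes had a log2 IP/T of -1.13 and -0.86 with EV and of -1.42 and -0.97 with miR-155. The other probe of HRK had 0.52 with EV and 0.53 with miR-155. For NPAS3 the log2 IP/T was -1.05 with EV and -2.21 with miR-155, with a total signal of 13078 and 12641 and an IP signal of 6326 and 2741. Its total RNA was alike in both vectors and its IP signal was lower in miR-155-ST486. At the other end stood PSAP at 1.40, MKRN1, a RING finger ubiquitin ligase, at 0.96 and CCDC69 at 0.92. APPL1 was also among the highest, but its ratio in EV-ST486 is only a bound and its difference is not given. PSAP, the precursor of the saposins that help to degrade sphingolipids in lysosomes, had a log2 IP/T of -2.39 with EV and -0.99 with miR-155. Its total signal was 280 and 220 and its IP signal 53.4 and 111, all at the dim end of the table.

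By function, 18 of the 110 named probes fell into 1 of 21 lists of genes, 16.4% against 18.1% of all named probes, and 12 lists held none. The lists hold named probes only, of which 1.06% were among the 200 and 5.5% had a ratio of at most 0.5 in both vectors. Cytosolic ribosomal proteins supplied 3 of their 185 probes (1.62%), RPL13, RPL12 and RPS2. This count was 24 with normexp background correction, 7 with replaced local backgrounds, 5 for probes detected in all 8 channels, and 1 without quantile normalization, on the arrays with total RNA in Cy3, with Cy3 alone or ranked by EV-ST486. Of all their probes, 16.2% had a ratio of at most 0.5 in both vectors. Their median log2 IP/T was -0.55. RPL12, of the large subunit, had -1.76 and -1.64. Proteins of MHC presentation and the proteasome had low medians as well, -0.55 and -0.49, and shares of 13.2% and 11.1%, but no probe among the 200. Translation factors had a median of -0.39 and 1 probe, of EIF4H, a helper of the helicase EIF4A, at -1.93 and -1.68. A second probe of EIF4H had a mean log2 IP/T of -0.4.

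Zinc finger genes named ZNF and their relatives had a median of 0.35, above that of all probes, and supplied 4 of their 283 probes, 1.41% against 1.06% of all named probes. ZNF575 had -1.57 and -2.46, ZNF467 -1.56 and -2.29, ZNF263 -2.09 and -1.75, and ZSCAN10, a transcription factor of embryonic stem cells, -1.46 and -2.33. The list as a whole had 2.12% of its probes at a ratio of at most 0.5 in both vectors. Surface receptors and adhesion proteins supplied 3 of 114 probes, 2.63%. These were CDH24, a cadherin, at -1.64 and -2.14, GPR153, an orphan receptor, at -1.43 and -2.15, and TSPAN10, a tetraspanin, at -1.40 and -1.83.

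Lysosomal proteins supplied PSAP and PPT1, of 59 probes. PPT1 has only the bound given above in EV-ST486 and had -1.44 in miR-155-ST486. Transporters supplied SLC25A11, the mitochondrial oxoglutarate carrier, at -1.62 and -1.55, and CACNA1I, a T-type calcium channel, at -1.40 and -2.05. Single probes came from MAN2A2, a Golgi mannosidase, at -1.88 and -1.45, from ATP5F1C, the gamma subunit of ATP synthase, at -1.45 and -1.79, and from UBE2L6, the interferon-induced enzyme that conjugates ISG15, at -1.85 and -1.74. Other probes of MAN2A2 had a mean log2 IP/T of -0.57 and 0.2. No probe of the 200 came from the lists of histones, splicing factors, mitosis, ER folding, sterol synthesis, mitochondrial ribosomal proteins, the B cell receptor, noncoding RNAs, or immediate early and stress-induced genes. The last of these had the highest median of the lists, 1.03. The list of mitochondrially encoded genes had no probe in the table.

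Further groups were formed after the values were seen, around genes already found among the 200, so their counts follow from how they were made and nothing is read from them. Gene families with regulators of embryonic development supplied 10 of their 60 probes (16.7%, against 1.06% of all named probes). These were WNT6, SOX1, SOX17, NKX2-8, LBX1, NEUROG3, MAFA, FOXQ1, HES7 and SCRT2, genes best known from nerve, pancreas, muscle and somite formation. Besides the families of these genes, the group took in the LHX, PAX, TBX, GATA, POU and HOX families, which had no probe among the 200. Whole families were counted, so genes such as FOXO1, FOXM1 and POU2F2 are included. WNT6, a secreted signalling protein, had -1.59 and -2.29 with total signals of 26334 and 21400, and HES7, the repressor of the somite clock, had -1.50 and -2.07 with 68934 and 56917. SOX1 and SOX17, of neural and endodermal precursors, had -1.46 and -2.00, and -1.35 and -2.02. Of the 60 probes 26 had a mean log2 IP/T above 0, up to 2.34 for a probe of SOX4.

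The BCL2 family supplied BAX, BBC3 and HRK, 3 of 20 probes, of which BBC3 (PUMA) and HRK are BH3-only proteins that promote apoptosis. BBC3 had -1.33 and -1.98 and HRK -1.17 and -2.13, and each had another probe above 0. The total signal of BBC3 in EV-ST486 was 99845 at the probe among the 200 and 2031 at the other. In the family 9 of the 20 probes lay above 0, among them 1 of MCL1 at 1.66 and 1 of BCL2L11 at 2.43, whose other probes had -0.27 and -0.24. Of the synthetases that charge tRNAs, KARS1, YARS1 and the mitochondrial CARS2 were among the 200, 3 of 36 probes. A second probe of CARS2 had a mean log2 IP/T of 0.03. Its total signal in EV-ST486 was 22248, against 556 at the CARS2 probe among the 200. Of DNA replication and repair, NABP2, FEN1, POLD2 and RUVBL1 were among the 200, 4 of 47 probes. FEN1, the flap endonuclease, had a second probe at -1.17. The medians of these groups over all their probes were -0.24, -0.02, -0.36 and -0.19, in the order given, and that of all probes was -0.16.

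By position, 14 of the 104 genes lay on chromosome 7, 13.5% against 4.69% of all named genes. This was noticed after the values were seen. Over all named probes of chromosome 7 the share with a ratio of at most 0.5 in both vectors was 6.35%, and over all named probes it was 5.5%. In gene order they included TNRC18, DBNL, POLD2, DDX56, SUMF2, EIF4H, LAT2, BUD31, ST7, CHCHD3, MKRN1, ADCK2 and ZNF467. EIF4H and LAT2 are direct neighbours in the RefSeq annotation. The genes were shorter than most, with a median length of 14.32 kb from start to end against 27.22 kb of all 7930 named genes. The GC content of the 250 bases before the start had a median of 66.4% over the 86 genes with a promoter sequence and of 64.8% over 6629 named genes.

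The choice of probes depended on the setting. With normexp background correction in place of the one made by the scanner software, 66 of the 200 stayed among the 200 lowest, all 53 of the probes in the highest decile of total signal and 13 of the 147 others. After a few very high local backgrounds were replaced it was 109, all 53 of the bright probes and 56 of the others. Both of these settings added an offset of 50 to every signal, which draws the ratios of dim probes towards 1 more than those of bright ones. How much of these counts the offset made was not tested. Other settings kept fewer of the bright probes. Ranking by EV-ST486 alone kept 13 of the 53, a lower share than of the others. Ranking by the less depleted vector kept 26 of the 53 and 123 of the 147, and leaving out the dye filter 28 and 95. Without quantile normalization it was 43 and 144. Of the 14 settings in which 200 probes were chosen again, 10 probes were kept in every one, the settings with this offset included. The named ones were CKB, PRR7, WNT6 and 1 probe of TPT1. The second probes of CKB and WNT6 were not among the 200, with a mean log2 IP/T of -0.77 and -0.20.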

How the data were processed

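ST486 cells with the empty or the miR-155 vector were profiled on 2-colour Agilent 44k arrays, as Ago2-IP against total RNA in both dye orientations. Per the file headers, the channel files hold intensity values that the authors extracted with Agilent Feature Extraction 10.5.1.1, background-subtracted and dye-normalized. Each array is present under both of its channels. The authors also deposited log2 values of 14453 probes, quantile-normalized in GeneSpring over the 8 channels, after removal of probes undetected in most samples or discordant between dyes. Quantile normalization makes every ratio relative to the other probes, and the dye filter favours probes on which the labellings agree. All columns of the log2 table were used (0 left out). The same values were made again from the intensity values (floor 1, mean over spots), and 99.9% of the deposited log2 values lay within 0.05.

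Log2 IP/T was computed per vector and the 200 lowest means were taken. No test was run, as there was 1 RNA sample per condition and the number of arrays, 4, limits the precision. Signals are 2 to the power of the mean log2 value. Symbols came from RefSeq (GRCh38.p14) by accession, for 23958 of 41000 array probes and 10412 deposited ones, and no coordinates are given. Not used here were a protein table and probe sequences, so the planned protein features were not computed. Bounds used the dimmest probe well above background as floor.

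The probes, gene lists and groups were chosen with earlier results of these data known. Named were the 20 lowest genes, up to 4 of each list, genes with 2 or more probes among the 200, the ranks around the limit, and the extremes in total signal and in the differences between vectors. Others were named after their values were seen, to fill their group. Alternatives were other backgrounds, normalizations, orientations, dyes, filters, rankings and list sizes. The code that ranks the probes was checked on simulated data, with planted ratios lower than most of those here. That check does not show which probes of the data are lowest. Software was limma 3.58.1 in R 4.3.3 for normexp, and pandas 2.3.3, numpy 2.4.6 and matplotlib 3.10.9 in Python 3.11.15.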

Additional observations from a re-analysis of the deposited data

How the results depend on the processing

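The result with the most dependence on processing was which probes were lowest. Of the 200, 66 were chosen again with normexp background correction, 109 with normexp after replacing high local backgrounds, 118 when ranked by EV-ST486 alone, 119 on the arrays with total RNA in Cy5 and 123 without the dye filter. Of the 104 genes, 80 were among the 200 lowest when 1 value per gene was used. Leaving out a labelling kept 154 (Cy5 alone) or 160 (Cy3 alone). The median log2 IP/T moved to -1.17 with EV and -1.31 with miR-155 with normexp. In miR-155-ST486 it was also -1.58 with replaced backgrounds, -1.50 when ranked by EV-ST486, -1.64 for the 400 lowest and -1.46 with 1 value per gene. With the 200 probes chosen again under each setting, the median difference between vectors turned to 0.04 on the arrays with total RNA in Cy3, to 0.29 when ranked by EV-ST486, and lay between -0.36 and 0.16 when a labelling was left out. The median percentile of total signal in EV-ST486 was 96.3 with normexp, 91.2 with replaced backgrounds, 51.0 when ranked by EV-ST486, 79.8 when ranked by miR-155-ST486, 67.4 by the less depleted vector, 63.9 without quantile normalization, 66.1 on the arrays with total RNA in Cy3, 76.1 for probes detected in all 8 channels, 75.3 for probes with the IP above background, 66.2 without the dye filter and with 1 value per gene, 69.3 for the 100 and 67.2 for the 400 lowest, and 67.6 to 72.6 when a labelling was left out. Probes in the gene lists numbered 34 with normexp and 31 with 1 value per gene, and the other probes of the named genes had a median of -0.51 without quantile normalization. The cause was not tested. In 114 of the other cases the value lay within the median labelling spread of a single probe from the main value or, for counts, within 1.5 times. That spread does not measure the uncertainty of a median over the probes. The replaced backgrounds and the limit on the IP were chosen after seeing the data. No paired analysis was possible because the result comes from no test and each vector has 1 RNA sample. Dim IP signals, near background, limit the size of low ratios.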

Other observations

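The deposited table leaves out 5004 array probes that were detected in at least 4 channels. In the values made again from the scanner files, 108 of these had a mean log2 IP/T at or below that of the last of the 200 probes, and 60 of the 108 had a ratio of at most 0.5 in both vectors and both orientations. The 200 probes are therefore the lowest of the deposited table and not of the array.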
